A study of Mus musculus with 8 samples.

Results

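The 53 genes described here encode the proteins that mark, license, unwind and copy the origins and forks of chromosomal DNA. They were taken by symbol from a deposited count table of 26642 annotated genes and unannotated loci, and all 53 were found on 1 row each. The table holds messenger RNA of CT26 cells, a mouse colon carcinoma line grown in RPMI medium with serum, in 8 libraries. There are 4 libraries of unedited cells (genotype WT) and 4 of cells with a knockout of both Tead1 and Tead4, whose products carry the coactivators YAP and TAZ to DNA. No treatment, time point or further allele is named for either genotype. The labels do not say which part of each gene was edited, whether the knockout line is 1 clone, or whether libraries of a genotype came from separate cultures. The p-values therefore measure the spread between these libraries only, which may be technical.

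DNA replication starts at origins, where the origin recognition complex, Cdc6 and Cdt1 load the Mcm2 to Mcm7 helicase in G1. The kinase made of Cdc7 and Dbf4, together with Cdc45, the GINS complex and Mcm10, turns the loaded helicase into a moving fork at the start of S phase. DNA polymerases then copy the strands with the sliding clamp PCNA, while ribonucleotide reductase supplies deoxynucleotides. Many of these genes are known targets of E2F transcription factors and are used as markers of dividing cells. In bulk libraries, fewer cells in S phase and less RNA per cell cannot be told apart.

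Total counts per library lay between 29679405 and 32774905. Levels are counts per 1000000 after TMM scaling (CPM), and log2 fold changes, given with their standard error (SE), are negative where the knockout libraries are lower. A gene is called where edgeR's quasi-likelihood test across all 13265 tested rows gives a Benjamini-Hochberg adjusted p under 0.05. Tead1 was at 319, 155, 142 and 209 CPM in WT replicates 1 to 4 and at 51.2, 64.8, 76.3 and 77.8 CPM in knockout replicates 1 to 4. Tead4 was at 52.1, 36.7, 39.4 and 63.2 CPM in WT replicates 1 to 4 and at 25.8, 23.3, 31.2 and 37.0 CPM in knockout replicates 1 to 4. Both targeted genes were called lower, Tead1 (log2 fold change -1.61 with SE 0.27, adjusted p = 0.00217 by edgeR) and Tead4 (log2 fold change -0.71 with SE 0.22, adjusted p = 0.0261 by edgeR), and the genotypes did not overlap for Tead1 but did for Tead4. Counting over whole genes does not measure the loss of either protein. The epithelial marker genes Epcam, Krt19, Cdh1, Cdx2 and Vil1 were at or near 0 CPM in all libraries, and Krt8 was under 1 CPM in WT and knockout means (0.328 ± 0.230 to 0.896 ± 0.0975 CPM, log2 fold change 1.43 with SE 0.69, adjusted p = 0.121 by edgeR). Krt18 was the epithelial marker present and rose from 38.5 ± 2.93 to 76.3 ± 8.65 CPM (log2 fold change 0.99 with SE 0.14, adjusted p = 0.00107 by edgeR). Leukocyte and endothelial markers summed to at most 0.291 and 0.122 CPM in any library. Fibroblast markers summed to 165 to 300.4 CPM in WT and 300.0 to 419 in knockout libraries, and 3 of the 4 tested were called higher. Most of the WT sum was Col1a1 (196 ± 51.5 CPM in WT, 213 ± 82.7 in knockout, adjusted p = 0.750 by edgeR). Pdgfra and Pdgfrb were present in both genotypes and called higher. Dcn, also called higher, was at most 0.142 CPM in WT and at 2.37 to 14.4 CPM in knockout libraries. Lum was at 0 CPM in WT and at most 0.489 CPM in knockout libraries. The part of these fibroblast markers in the results below was not tested. WT replicates 1 and 4 were closer to each other, and so were 2 and 3 (chi-square per degree of freedom 34.7 and 35.0), than any other WT pair (201 to 242). The labels give no reason for these pairs.

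Replication genes were lower in the knockout libraries as a group. All 53 members passed the filter on low counts, 43 were called lower, and none was called higher by edgeR, where no member had a positive fold change. Among all rows tested, 20.6% were called lower and 20.9% higher. The share of calls that were higher was 50.4% over all rows, 64.6% under upper-quartile factors and 63.5% under plain library size. Under these scalings 38 members (14.8% of all rows) and 41 members (15.1%) were called lower. The median log2 fold change of the members was -1.25, from -2.20 for Orc1 to -0.027 for Dut, beside a median of 0.022 over all rows. The 4 knockout values lay below all 4 WT values for 37 members, as they did for 19.6% of all rows. A decrease of at least 2-fold that was also called was found for 37 members, against 8.56% of all rows. The 10 members that did not pass the test were Orc5, Gins3, Rpa1, Rpa3, Rfc2, Rfc3, Rfc4, Rfc5, Fen1 and Dut, which does not show that they did not differ. The smallest count of any member in any library was 67.

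The count of calls depends on how the libraries are treated. When the counts of WT replicates 1 and 4, and of 2 and 3, were summed to 2 WT units, 21 members were called lower (10.3% of all rows). This alternative was added with the data in view. The 22 calls it ended, with adjusted p from 0.0506 for Pole2 to 0.133 for Dbf4, were those of Orc4, Cdc6, Gmnn, Mcm7, Mcm10, Cdc45, Gins1, Gins2, Cdc7, Dbf4, Rpa2, Pcna, Rfc1, Prim1, Pold1, Pole2, Lig1, Rrm2, Chaf1a, Chaf1b, Slbp and Tipin. At an adjusted p under 0.01, 22 members were called lower (9.41% of all rows). With the mean level of 20 G2/M genes per library as a covariate, 0 members were called by edgeR (0.792% of all rows called lower). At an unadjusted p under 0.05 in that fit 2 members were lower, and the share of all rows was not counted. In the same fit 20 member fold changes turned positive, beside a median log2 fold change of 0.0039 over all rows. That covariate itself differs between the genotypes without overlap, so it and the genotype cannot be told apart.

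**Figure D1:**
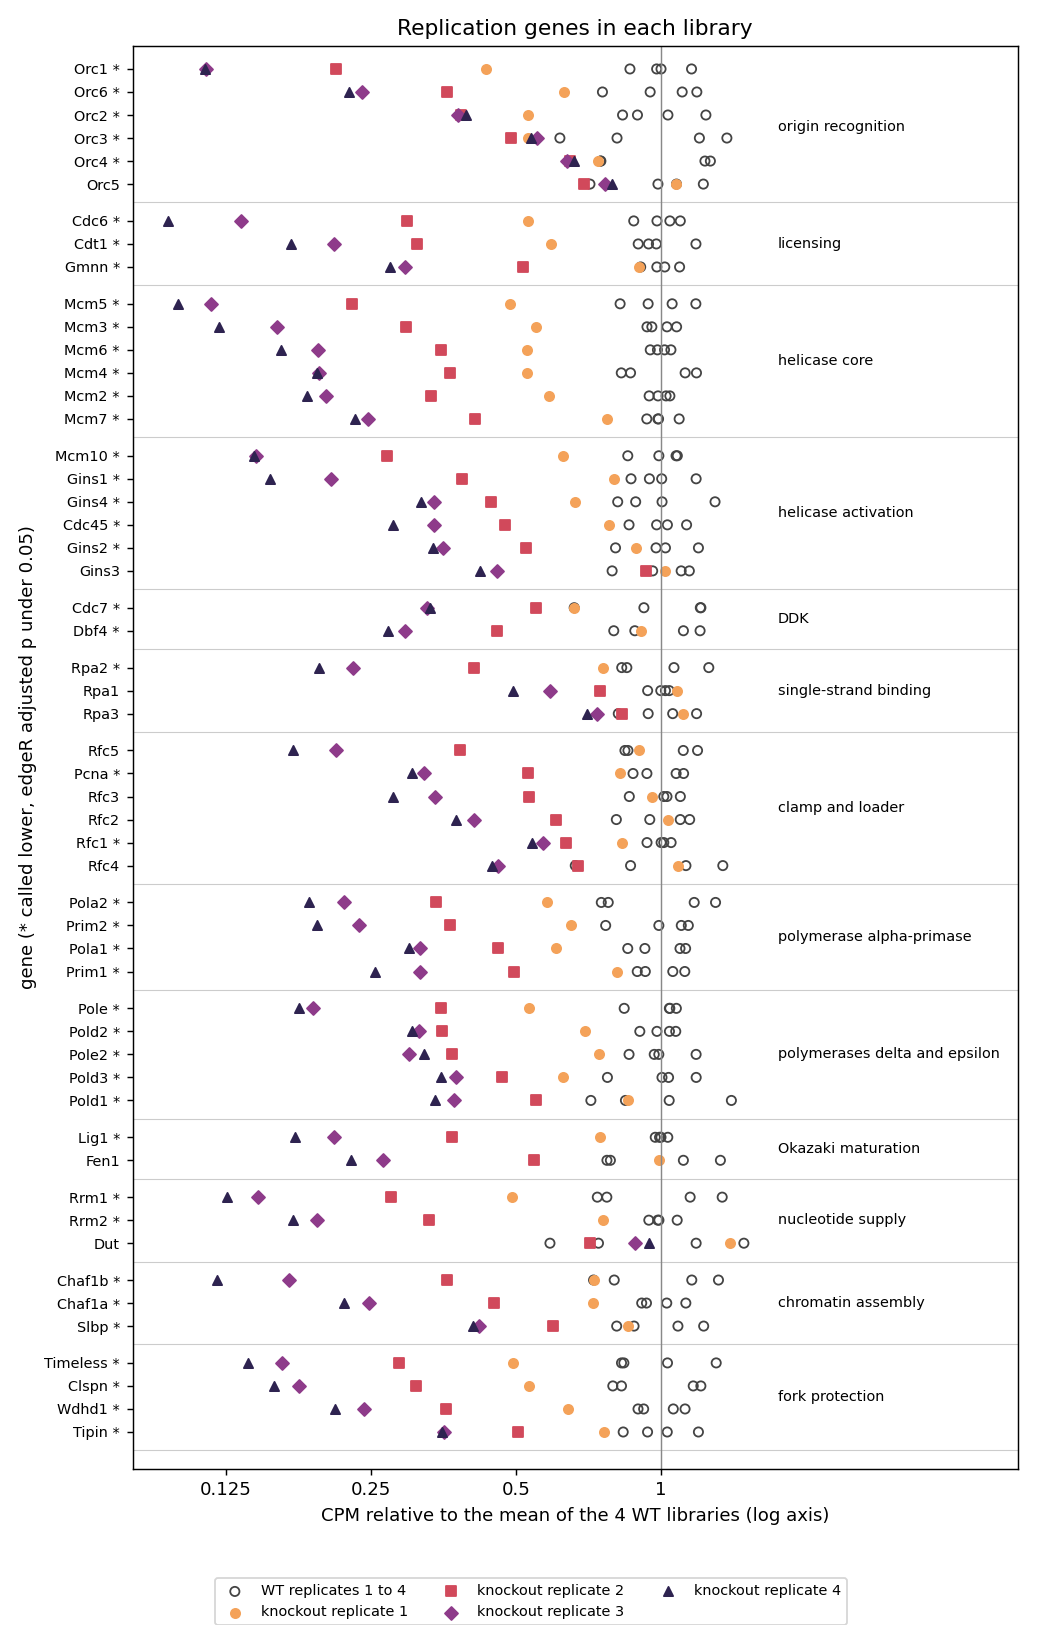
CPM of each of the 53 genes in each library divided by the mean of the 4 WT libraries (log axis), grouped by role, with open circles for WT and filled symbols for each knockout library. Knockout replicate 1 is the highest knockout library for 52 of the 53 genes and lies within or above the WT values for 16.

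Promoter sequences of 44 members were found in RefSeq's GRCm38.p6 table, as windows from 250 bases before to 50 bases after the transcription start. They were searched on both strands for 4 spellings of the E2F site, TTTCCCGC, TTTCGCGC, TTTGCCGC and TTTGGCGC, whose matches may overlap. At least 1 match was found for 16 of the 44 members (36.4%), against 2.60% of all 27025 genes in the table. Among members, 14 of the 35 called lower and 2 of the 9 not called held a match. CCAAT, the NF-Y motif, was found for 26 members (59.1%, against 41.1% of all genes), and TTTGAA, the CHR motif of late cell cycle genes, for 7 (15.9%, against 20.2%). A match is a description of letters and not a measured binding site. The sequences below are the 170 bases that end just before the RefSeq start of 6 members. They are shown because their matches lie upstream of that start. They also cover some of the largest decreases (Orc1, Mcm5 and Cdc6), another helicase gene (Mcm6) and a polymerase gene (Pola1). Orc3 is shown as a gene whose knockout libraries hardly differ from one another. GENCODE places some starts elsewhere. Its Cdc6 gene starts at 98907801 and its Orc1 gene at 108579423, so both printed matches lie inside the GENCODE genes. Matches upstream of the RefSeq start also lie in Mcm7, which was called lower, and in Gins3 and Rfc3, which were not called. These matches too lie inside the GENCODE genes. The sequences of Mcm7, Gins3 and Rfc3 are not printed, and all 6 genes shown were called lower. Capitals mark the E2F matches.
Orc1 (chr4:108579284-108579453, plus strand): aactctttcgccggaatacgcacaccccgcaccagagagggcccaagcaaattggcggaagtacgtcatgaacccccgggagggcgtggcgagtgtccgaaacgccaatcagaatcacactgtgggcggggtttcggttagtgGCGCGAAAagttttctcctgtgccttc
Orc3 (chr4:34614943-34615112, minus strand): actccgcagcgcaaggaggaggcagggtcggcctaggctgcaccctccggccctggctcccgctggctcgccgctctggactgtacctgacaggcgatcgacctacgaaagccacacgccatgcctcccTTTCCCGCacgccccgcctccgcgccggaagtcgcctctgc
Cdc6 (chr11:98907981-98908150, plus strand): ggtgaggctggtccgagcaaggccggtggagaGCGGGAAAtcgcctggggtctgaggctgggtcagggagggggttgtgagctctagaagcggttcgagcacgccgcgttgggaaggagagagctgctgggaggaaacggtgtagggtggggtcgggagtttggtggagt
Mcm5 (chr8:75109339-75109508, plus strand): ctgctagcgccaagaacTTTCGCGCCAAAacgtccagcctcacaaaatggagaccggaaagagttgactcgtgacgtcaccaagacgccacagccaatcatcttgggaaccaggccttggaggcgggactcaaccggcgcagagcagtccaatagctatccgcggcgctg
Mcm6 (chr1:128359706-128359875, minus strand): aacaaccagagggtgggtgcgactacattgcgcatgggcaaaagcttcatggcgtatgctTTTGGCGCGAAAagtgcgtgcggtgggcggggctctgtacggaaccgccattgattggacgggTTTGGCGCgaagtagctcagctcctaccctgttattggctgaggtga
Pola1 (chrX:93632156-93632325, minus strand): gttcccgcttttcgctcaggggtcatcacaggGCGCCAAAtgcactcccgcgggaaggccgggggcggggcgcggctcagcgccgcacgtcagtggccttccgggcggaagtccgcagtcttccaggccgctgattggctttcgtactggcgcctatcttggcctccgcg
Mcm5 carries 2 overlapping matches that form 1 run, and Mcm6 carries such a run and a further match nearer the start.

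The origin recognition complex binds origins and with Cdc6 loads the helicase. Of its 6 genes 5 were called lower (20.6% of all rows), with a median log2 fold change of -1.08. Orc1, the subunit whose level is known to follow the cell cycle, had the largest decrease of all members. Orc1 was at 21.0, 17.8, 18.2 and 15.7 CPM in WT replicates 1 to 4 and at 7.87, 3.84, 2.06 and 2.05 CPM in knockout replicates 1 to 4 (ENSMUSG00000028587; chromosome 4, 108579423 to 108614833, plus strand). Every knockout library lay below every WT library, and the mean fell from 18.2 ± 2.20 to 3.95 ± 2.74 CPM (log2 fold change -2.20 with SE 0.41, adjusted p = 0.0036 by edgeR). Orc2 was at 193, 167, 155 and 231 CPM in WT replicates 1 to 4 and at 98.5, 71.7, 70.7 and 73.3 CPM in knockout replicates 1 to 4 (ENSMUSG00000026037; chromosome 1, 58462771 to 58505109, minus strand). The knockout values lay below all WT values, with replicates 2 to 4 close together, and the gene fell from 186 ± 33.7 to 78.6 ± 13.3 CPM (log2 fold change -1.25 with SE 0.18, adjusted p = 0.00117 by edgeR). Orc5 was at 35.8, 39.1, 25.8 and 44.4 CPM in WT replicates 1 to 4 and at 39.0, 25.2, 27.8 and 28.7 CPM in knockout replicates 1 to 4. These ranges overlapped, and Orc5 did not pass the test (log2 fold change -0.27 with SE 0.20, adjusted p = 0.309 by edgeR). Orc6 (log2 fold change -1.46, adjusted p = 0.00675), Orc3 (-0.92, adjusted p = 0.0124) and Orc4 (-0.57, adjusted p = 0.0445) fell. The call for Orc4 was lost without WT replicate 1 or 4 or knockout replicate 2, 3 or 4 (adjusted p = 0.0970 to 0.118) and under both other scalings named (0.106 with upper-quartile factors and 0.103 with plain library size). It was also lost with no filter (0.0573), with a filter of 5 CPM in 4 libraries (0.0653) and in limma-voom (0.0551). The exons of Orc2 overlap those of Nif3l1 on the opposite strand by 1150 bases, and whether strand was used in counting is not given.

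The licensing factors fell together. Cdc6 is the ATPase that joins the origin complex, Cdt1 brings the helicase to it, and geminin (Gmnn) binds and inhibits Cdt1 from S phase on. Cdc6 was at 55.4, 46.6, 58.3 and 52.1 CPM in WT replicates 1 to 4 and at 28.1, 15.8, 7.13 and 5.04 CPM in knockout replicates 1 to 4 (ENSMUSG00000017499; chromosome 11, 98907801 to 98923940, plus strand). The knockout libraries all lay below WT but differed from one another by 5.58-fold, against 1.25-fold among WT libraries, and the gene fell from 53.1 ± 4.99 to 14.0 ± 10.5 CPM (log2 fold change -1.92 with SE 0.46, adjusted p = 0.00961 by edgeR). The call was lost with the close WT pairs merged (adjusted p = 0.0512). Cdt1 was at 169, 162, 204 and 155 CPM in WT replicates 1 to 4 and at 102, 53.6, 36.1 and 29.4 CPM in knockout replicates 1 to 4. Cdt1 fell from 172 ± 21.7 to 55.2 ± 32.6 CPM, with no overlap (log2 fold change -1.64 with SE 0.35, adjusted p = 0.00585 by edgeR). Gmnn was at 52.7, 48.8, 58.8 and 54.8 CPM in WT replicates 1 to 4 and at 48.4, 27.8, 15.8 and 14.7 CPM in knockout replicates 1 to 4. Here knockout replicate 1 lay just under the lowest WT library, and the decrease was smaller (log2 fold change -1.01 with SE 0.34, adjusted p = 0.0383 by edgeR). The call for Gmnn was lost without any 1 of the WT libraries and without knockout replicate 2, 3 or 4 (adjusted p = 0.0570 to 0.0874), and with upper-quartile factors (0.0574). The log2 ratio of Cdt1 to Gmnn was 1.67 ± 0.13 in WT and 1.05 ± 0.10 in knockout libraries, with no overlap between genotypes (difference -0.63, exact permutation p = 0.0286, adjusted p = 0.124).

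All 6 genes of the helicase core were called lower (20.6% of all rows). For all 6 the knockout libraries lay below every WT library (19.6% of all rows). Mcm2 to Mcm7 form the ring that unwinds DNA at the fork, and each ring holds 1 of each subunit. Their median log2 fold change was -1.67, from -2.11 for Mcm5 to -1.27 for Mcm7. Mcm6 was at 413, 399.5, 386 and 426 CPM in WT replicates 1 to 4 and at 214, 142, 78.8 and 66.0 CPM in knockout replicates 1 to 4 (ENSMUSG00000026355; chromosome 1, 128331590 to 128359664, minus strand). The 4 WT values agreed within 1.10-fold while the knockout values spanned 3.24-fold, and Mcm6 fell from 406 ± 17.3 to 125 ± 67.8 CPM (log2 fold change -1.70 with SE 0.34, adjusted p = 0.00437 by edgeR). Mcm7 was at 471, 445, 469 and 519.5 CPM in WT replicates 1 to 4 and at 368, 195, 118 and 110.4 CPM in knockout replicates 1 to 4. Knockout replicate 1 came closer to WT for Mcm7 than for the other core subunits (log2 fold change -1.27 with SE 0.35, adjusted p = 0.0177 by edgeR). Mcm5 was at 282, 316, 354 and 246 CPM in WT replicates 1 to 4 and at 145, 68.5, 34.9 and 29.7 CPM in knockout replicates 1 to 4. The gene fell from 299.6 ± 46.1 to 69.6 ± 53.4 CPM (log2 fold change -2.11 with SE 0.46, adjusted p = 0.00637 by edgeR), and its promoter is among those printed. Mcm3 (log2 fold change -1.83, adjusted p = 0.00752), Mcm4 (-1.65, adjusted p = 0.00442) and Mcm2 (-1.62, adjusted p = 0.00538) lay between these. Per kilobase of merged exon, Mcm3 and Mcm7 were the highest of the 6 in WT, at 104 ± 6.79 CPM per kb in WT and 29.2 ± 20.1 in the knockout libraries for Mcm3 and at 108 ± 7.05 CPM per kb in WT and 44.7 ± 27.1 in the knockout libraries for Mcm7. All 6 calls were kept with each library left out in turn, and 5, all but Mcm7 (adjusted p = 0.0804), with the close WT pairs merged.

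Among the factors that activate the helicase, 5 of 6 were called lower (20.6% of all rows), with a median of -1.14. Cdc45 and the 4 GINS proteins join the Mcm ring to make the active helicase, and Mcm10 helps to start it. Gins4 was at 62.3, 54.9, 50.4 and 80.2 CPM in WT replicates 1 to 4 and at 41.1, 27.5, 21.0 and 19.7 CPM in knockout replicates 1 to 4 (ENSMUSG00000031546; chromosome 8, 23226616 to 23237659, minus strand). No knockout library reached WT, and Gins4 fell from 61.9 ± 13.1 to 27.3 ± 9.81 CPM (log2 fold change -1.18 with SE 0.25, adjusted p = 0.00614 by edgeR). Gins3 was at 15.6, 18.6, 17.9 and 12.9 CPM in WT replicates 1 to 4 and at 16.6, 15.2, 7.42 and 6.85 CPM in knockout replicates 1 to 4. Knockout replicates 1 and 2 lay inside the WT range and replicates 3 and 4 below it, and Gins3 did not pass the test (log2 fold change -0.50 with SE 0.31, adjusted p = 0.211 by edgeR). Mcm10 fell most in this group (log2 fold change -1.76, adjusted p = 0.0112), then Gins1 (-1.37, adjusted p = 0.0326), Cdc45 (-1.10, adjusted p = 0.015) and Gins2 (-0.93, adjusted p = 0.0316). The Gins1 call was lost without WT replicate 1, 3 or 4 or knockout replicate 2, 3 or 4 (adjusted p = 0.0570 to 0.0774), and the Gins2 call without WT replicate 2, 3 or 4 or knockout replicate 2, 3 or 4 (0.0546 to 0.0800) and with upper-quartile factors (0.0523). Gins2 shares 2758 bases of exon with Gse1 on the opposite strand.

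Both genes of the kinase that fires origins were called lower (20.6% of all rows), but neither without overlap. Cdc7 is its catalytic subunit and Dbf4 its activator. Cdc7 was at 37.8, 49.5, 49.6 and 27.1 CPM in WT replicates 1 to 4 and at 27.1, 22.6, 13.4 and 13.6 CPM in knockout replicates 1 to 4. Knockout replicate 1 stood level with WT replicate 4, the lowest WT library, and the others were lower (log2 fold change -1.10 with SE 0.28, adjusted p = 0.0129 by edgeR). Dbf4 was at 324, 257, 233 and 351 CPM in WT replicates 1 to 4 and at 265, 133, 85.9 and 78.9 CPM in knockout replicates 1 to 4. For Dbf4, knockout replicate 1 lay inside the WT range (log2 fold change -1.05 with SE 0.36, adjusted p = 0.0413 by edgeR). That call was lost without WT replicate 1, 2 or 4 or knockout replicate 2, 3 or 4 (adjusted p = 0.0579 to 0.0974) and with upper-quartile factors (0.0561). The log2 ratio of Dbf4 to Cdc7 was 2.85 ± 0.68 in WT and 2.76 ± 0.35 in knockout libraries (difference -0.086, exact permutation p = 0.857, adjusted p = 0.929).

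Of the 3 genes of replication protein A, the trimer that coats single-stranded DNA, 1 was called lower, beside 20.6% of all rows. The difference between these shares was not tested. Rpa2 was at 54.2, 69.6, 82.2 and 55.6 CPM in WT replicates 1 to 4 and at 49.7, 26.8, 15.0 and 12.7 CPM in knockout replicates 1 to 4 (ENSMUSG00000028884; chromosome 4, 132768332 to 132778752, plus strand). The middle subunit gene Rpa2 fell from 65.4 ± 13.2 to 26.1 ± 16.9 CPM, with no overlap (log2 fold change -1.33 with SE 0.39, adjusted p = 0.0228 by edgeR), and the call was lost without knockout replicate 2 or 3 (adjusted p = 0.0574 and 0.0554). Rpa1 was at 235, 239.9, 244 and 220.3 CPM in WT replicates 1 to 4 and at 254, 175, 138 and 116 CPM in knockout replicates 1 to 4. For the large subunit Rpa1, knockout replicate 1 was above every WT library and the other 3 were below them all, and the test was not passed (log2 fold change -0.46 with SE 0.23, adjusted p = 0.126 by edgeR). Rpa3 was at 35.1, 45.5, 51.0 and 40.5 CPM in WT replicates 1 to 4 and at 47.8, 35.8, 31.6 and 30.2 CPM in knockout replicates 1 to 4. The small subunit Rpa3 did not pass either (log2 fold change -0.24 with SE 0.19, adjusted p = 0.311 by edgeR). The log2 ratio of Rpa2 to Rpa1 was -1.86 ± 0.24 in WT and -2.86 ± 0.41 in knockout libraries, and its knockout values, between -3.20 and -2.35, all lay below WT (difference -1.0, exact permutation p = 0.0286, adjusted p = 0.124).

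The clamp and its loader held the largest number of members that missed the threshold. PCNA is the ring that holds polymerases on DNA, and the 5 replication factor C subunits open and load it. Of these 6 genes 2 were called lower, beside 20.6% of all rows, with a median of -0.82. The difference between these shares was not tested. Pcna, the most abundant member per kilobase (251 ± 28.5 CPM per kb in WT and 124 ± 60.8 in the knockout libraries), fell from 603 ± 68.4 to 298 ± 146 CPM (log2 fold change -1.02 with SE 0.30, adjusted p = 0.0242 by edgeR). Rfc1 was at 257, 245, 229 and 248 CPM in WT replicates 1 to 4 and at 203, 155, 139 and 132 CPM in knockout replicates 1 to 4 (ENSMUSG00000029191; chromosome 5, 65261850 to 65335670, minus strand). The large subunit gene Rfc1 fell with no overlap (log2 fold change -0.63 with SE 0.16, adjusted p = 0.0119 by edgeR), and its call was lost with the close WT pairs merged (adjusted p = 0.0669). Rfc4 was at 21.4, 36.4, 43.4 and 27.9 CPM in WT replicates 1 to 4 and at 35.0, 21.7, 14.8 and 14.4 CPM in knockout replicates 1 to 4. For Rfc4, WT replicate 1 was as low as knockout replicate 2 and the ranges overlapped (log2 fold change -0.59 with SE 0.32, adjusted p = 0.16 by edgeR). Rfc5 (-1.26, adjusted p = 0.050024), Rfc3 (-0.92, adjusted p = 0.0531) and Rfc2 (-0.72, adjusted p = 0.079) also failed the threshold. Knockout replicate 1 was inside the WT range for Rfc2, Rfc3, Rfc4 and Rfc5. It was also their highest knockout library, so leaving it out lowers their knockout means. All 4 were then called lower by edgeR, beside 24.6% of all rows in that fit. They were Rfc5 (log2 fold change -1.98, adjusted p = 0.00114), Rfc3 (-1.40, adjusted p = 0.00171), Rfc2 (-1.12, adjusted p = 0.00289) and Rfc4 (-0.94, adjusted p = 0.0191). Rfc2, Rfc3 and Rfc5 also passed in limma-voom (adjusted p = 0.0425, 0.0219 and 0.0157) and DESeq2 (0.0453, 0.0198 and 0.0113). The Pcna call was lost without WT replicate 1 or knockout replicate 2, 3 or 4 (adjusted p = 0.0554 to 0.0609).

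All 9 polymerase genes among the 53 members were called lower (20.6% of all rows). Of subunit genes outside the 53, Pole3 was called lower (log2 fold change -1.02, adjusted p = 0.0135 by edgeR). Pold4 was called higher (1.35, adjusted p = 0.00579), and Pole4 did not pass the test (0.070, adjusted p = 0.768). Polymerase alpha with primase makes the RNA-DNA primers, polymerase epsilon copies the leading strand and polymerase delta the lagging strand. The 4 genes of polymerase alpha-primase had a median of -1.36 and the 5 of delta and epsilon -1.21. Pola1 was at 180.0, 152, 140.2 and 185 CPM in WT replicates 1 to 4 and at 99.6, 75.5, 52.0 and 49.4 CPM in knockout replicates 1 to 4 (ENSMUSG00000006678; chromosome X, 93304767 to 93632155, minus strand). The catalytic subunit gene Pola1 fell from 164 ± 21.6 to 69.1 ± 23.5 CPM, with no overlap (log2 fold change -1.25 with SE 0.23, adjusted p = 0.00346 by edgeR). Prim1 was at 54.6, 68.5, 64.7 and 56.8 CPM in WT replicates 1 to 4 and at 49.5, 30.2, 19.3 and 15.6 CPM in knockout replicates 1 to 4. The primase gene Prim1 fell, and knockout replicate 1 lay close under WT (log2 fold change -1.09 with SE 0.32, adjusted p = 0.0221 by edgeR). Pola2 (log2 fold change -1.59, adjusted p = 0.00728) and Prim2 (-1.47, adjusted p = 0.00926) fell too. Pold3 was at 69.2, 60.7, 45.3 and 58.8 CPM in WT replicates 1 to 4 and at 36.7, 27.4, 21.9 and 20.4 CPM in knockout replicates 1 to 4 (ENSMUSG00000030726; chromosome 7, 100082111 to 100121565, minus strand). The accessory subunit gene Pold3 fell from 58.5 ± 9.90 to 26.6 ± 7.34 CPM, with no overlap (log2 fold change -1.14 with SE 0.21, adjusted p = 0.0036 by edgeR). Pold1 was at 123, 152, 205 and 105 CPM in WT replicates 1 to 4 and at 125, 80.3, 54.4 and 49.6 CPM in knockout replicates 1 to 4. The catalytic subunit gene Pold1 overlapped between genotypes, and the WT libraries themselves differed by 1.96-fold (log2 fold change -0.92 with SE 0.31, adjusted p = 0.0396 by edgeR). Pole, the catalytic subunit of polymerase epsilon, fell most of the 5 (-1.68, adjusted p = 0.00425), ahead of Pold2 (-1.26, adjusted p = 0.00539) and Pole2 (-1.21, adjusted p = 0.00896). The Pold1 call was lost without WT replicate 1, 2 or 3 or knockout replicate 2, 3 or 4 (adjusted p = 0.0589 to 0.101) and under the same pair of scalings (0.0700 and 0.0586), and that of Prim1 without knockout replicate 2 or 3 (0.0534 and 0.0573).

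Of the pair that finishes lagging-strand fragments, the ligase gene passed the test and the flap endonuclease gene did not. Lig1 was at 192, 188, 199.7 and 193 CPM in WT replicates 1 to 4 and at 144, 71.0, 40.5 and 33.6 CPM in knockout replicates 1 to 4 (ENSMUSG00000056394; chromosome 7, 13277283 to 13311433, plus strand). Lig1 was the most even member among WT libraries (1.06-fold from lowest to highest) and fell from 193 ± 4.83 to 72.4 ± 50.7 CPM (log2 fold change -1.42 with SE 0.40, adjusted p = 0.0189 by edgeR). The call was lost without knockout replicate 2 (adjusted p = 0.0523). Fen1 was at 55.9, 80.6, 96.2 and 56.8 CPM in WT replicates 1 to 4 and at 71.7, 39.5, 19.2 and 16.5 CPM in knockout replicates 1 to 4. For Fen1, knockout replicate 1 sat in the middle of the WT range and the other 3 knockout libraries below it (log2 fold change -0.98 with SE 0.43, adjusted p = 0.0931 by edgeR). Fen1 was called by edgeR without knockout replicate 1, its highest knockout library (log2 fold change -1.54, adjusted p = 0.00671, 24.6% of all rows called lower). It was also called by DESeq2 and limma-voom (adjusted p = 0.0440 and 0.0393).

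Of the nucleotide supply genes, Rrm1 and Rrm2, the large and small subunits of ribonucleotide reductase, fell, and Dut, the dUTPase that keeps uracil out of DNA, did not pass the test. Rrm1 was at 848, 488, 467 and 727 CPM in WT replicates 1 to 4 and at 310.0, 174, 92.0 and 79.4 CPM in knockout replicates 1 to 4 (ENSMUSG00000030978; chromosome 7, 102441695 to 102469771, plus strand). WT replicates 1 and 4 were higher than 2 and 3, all knockout libraries lay below them, and Rrm1 fell from 632 ± 186 to 164 ± 106 CPM (log2 fold change -1.95 with SE 0.43, adjusted p = 0.00658 by edgeR). Rrm2 was at 307, 292, 305 and 335 CPM in WT replicates 1 to 4 and at 235, 102, 59.8 and 53.4 CPM in knockout replicates 1 to 4. Rrm2 was even in WT and lower in every knockout library (log2 fold change -1.46 with SE 0.42, adjusted p = 0.0205 by edgeR), and its call was lost without knockout replicate 2 (adjusted p = 0.0589). Dut was at 51.1, 103, 129 and 64.5 CPM in WT replicates 1 to 4 and at 121, 61.8, 76.6 and 81.9 CPM in knockout replicates 1 to 4. WT replicates 1 and 4 held less Dut than replicates 2 and 3, a 2.53-fold range that enclosed all knockout libraries (log2 fold change -0.027 with SE 0.31, adjusted p = 0.952 by edgeR). Its sign turned positive with upper-quartile factors and with plain library size (0.12 under both). The log2 ratio of Rrm2 to Rrm1 was -0.98 ± 0.39 in WT and -0.59 ± 0.15 in knockout libraries (difference 0.39, exact permutation p = 0.143, adjusted p = 0.206).

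All 3 genes for chromatin behind the fork were called lower (20.6% of all rows). Chaf1a and Chaf1b encode subunits of the factor that places histones on new DNA, and Slbp binds the stem-loop of replication-dependent histone mRNA. Chaf1a was at 161, 178, 195 and 158 CPM in WT replicates 1 to 4 and at 125, 77.7, 42.9 and 38.0 CPM in knockout replicates 1 to 4. Chaf1a fell from 173 ± 17.0 to 70.9 ± 40.2 CPM, without overlap (log2 fold change -1.29 with SE 0.34, adjusted p = 0.0147 by edgeR), although its exons share 4648 bases with Ubxn6 on the opposite strand. Chaf1b was at 65.6, 45.3, 41.0 and 74.5 CPM in WT replicates 1 to 4 and at 41.1, 20.3, 9.54 and 6.78 CPM in knockout replicates 1 to 4. Chaf1b had the widest range of any member among knockout libraries, 6.06-fold, and knockout replicate 1 touched the WT range (log2 fold change -1.54 with SE 0.50, adjusted p = 0.0328 by edgeR). Slbp was at 209, 138, 149.8 and 185 CPM in WT replicates 1 to 4 and at 146, 102, 71.4 and 69.3 CPM in knockout replicates 1 to 4. Knockout replicate 1 overlapped WT for Slbp as well (log2 fold change -0.81 with SE 0.25, adjusted p = 0.0282 by edgeR). The Chaf1b and Slbp calls were lost without WT replicate 1 or 4 or knockout replicate 2, 3 or 4 (adjusted p = 0.0588 to 0.0749 for Chaf1b and 0.0558 to 0.0783 for Slbp).

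The 4 fork protection genes were all called lower (20.6% of all rows), each without overlap (19.6%). Timeless and Tipin form a pair that travels with the fork, Clspn (claspin) passes checkpoint signals to Chk1, and Wdhd1 links the helicase to polymerase alpha. Timeless was at 65.9, 82.2, 104 and 66.7 CPM in WT replicates 1 to 4 and at 39.3, 22.7, 13 and 11.0 CPM in knockout replicates 1 to 4 (ENSMUSG00000039994; chromosome 10, 128232065 to 128252941, plus strand). Timeless fell from 79.6 ± 17.7 to 21.5 ± 12.9 CPM (log2 fold change -1.89 with SE 0.38, adjusted p = 0.00469 by edgeR). Tipin was at 102, 92.4, 82.2 and 118 CPM in WT replicates 1 to 4 and at 75.1, 49.7, 34.8 and 34.5 CPM in knockout replicates 1 to 4. Its partner Tipin was lower in all knockout libraries by a smaller margin (log2 fold change -1.02 with SE 0.26, adjusted p = 0.0117 by edgeR). The log2 ratio of Timeless to Tipin was -0.32 ± 0.51 in WT and -1.28 ± 0.31 in knockout libraries, with no overlap (difference -0.96, exact permutation p = 0.0286, adjusted p = 0.124). Clspn (log2 fold change -1.77, adjusted p = 0.00556) and Wdhd1 (-1.46, adjusted p = 0.00657) fell. All 4 calls were kept with each library left out in turn, and that of Tipin was lost with the close WT pairs merged (adjusted p = 0.0590).

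Compared by role, the helicase core, licensing and fork protection genes had the lowest median log2 fold changes (-1.67, -1.64 and -1.62). Single-strand binding (-0.46) and clamp and loader genes (-0.82) had those nearest 0. The polymerase groups lay between, and the nucleotide supply median (-1.46) stands for 3 genes with values from -1.95 to -0.027. These medians describe 2 to 6 genes each and were not tested against one another. Of the 13 partner ratios compared, 3 did not overlap between genotypes, those of Cdt1 to Gmnn, Rpa2 to Rpa1 and Timeless to Tipin. Each reached 0.0286, the smallest p that 70 assignments can give, and none passed after adjustment over the 13 (lowest adjusted p = 0.124). The ratio of Orc1 to Orc2 had the largest difference (difference -1.16, exact permutation p = 0.0571, adjusted p = 0.149), and WT replicate 4 overlapped knockout replicate 1. For the 13 ratios a p above the threshold does not show that partners changed alike.

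**Figure D2:**
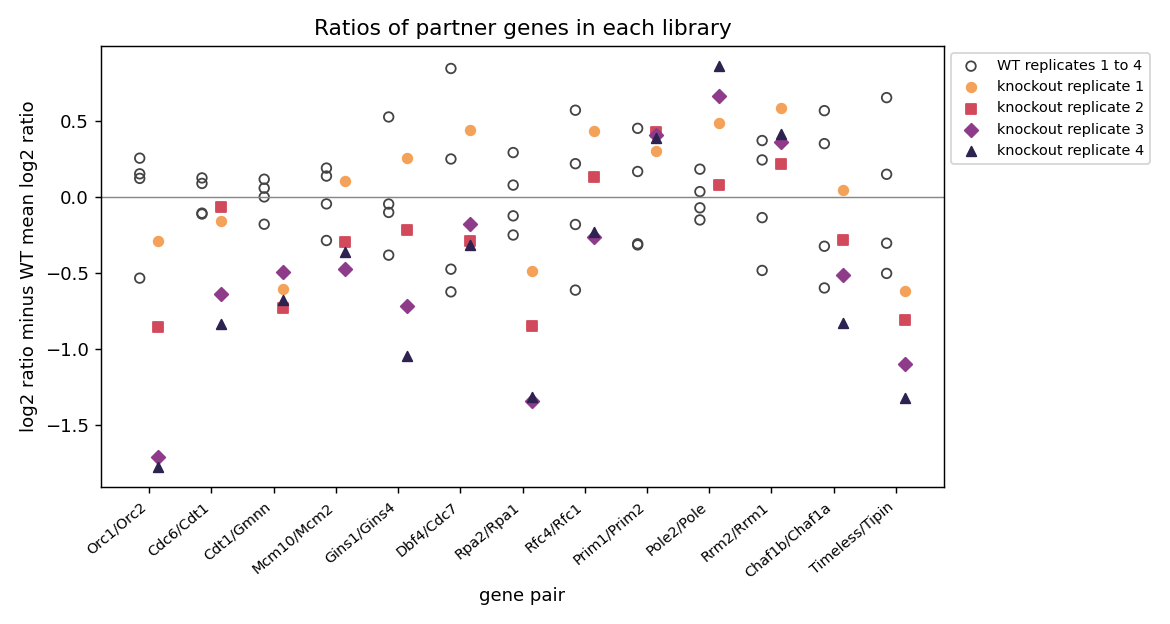
Log2 ratio of 13 pairs of partner genes in each library, minus the WT mean of that ratio, with open circles for WT and filled symbols for the knockout libraries. The Cdt1/Gmnn, Rpa2/Rpa1 and Timeless/Tipin ratios of all 4 knockout libraries lie below those of all 4 WT libraries.

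Levels differed widely between members. Per kilobase of merged exon in WT they ran from 5.22 CPM per kb for Orc1 to 251 for Pcna, with a median of 21.9. Rrm2 (112 ± 6.46 CPM per kb in WT and 40.7 ± 30.5 in the knockout libraries) followed Pcna. In the knockout libraries the median was 11.0 CPM per kb. Merged exons count every annotated transcript of a gene, so genes with many unused exons appear lower on this scale.

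**Figure D3:**
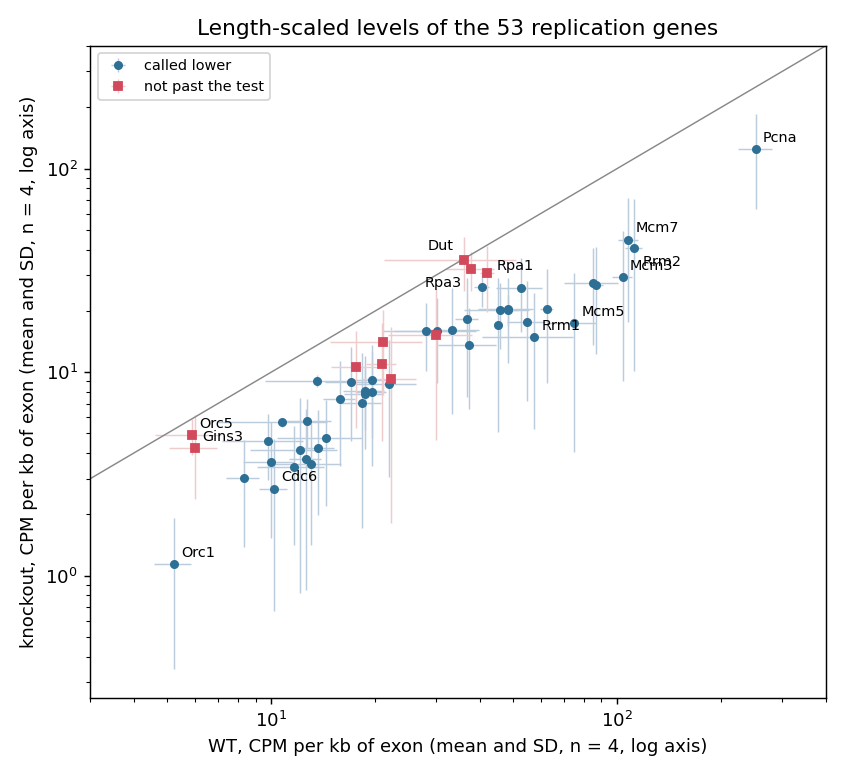
Mean CPM per kb of merged exon in WT (horizontal) and knockout libraries (vertical) for the 53 genes, both on log axes, with SD bars (n = 4) and a line of equality. All points lie below the line, Dut closest to it, and Orc1 is lowest and Pcna highest in both genotypes.

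The knockout libraries were graded. Replicate 1 ranked first among them for 52 of 53 members, against 40.9% of all rows tested and 71.3% of rows called lower. Replicate 4 ranked last for 46 (28.5% of all rows and 37.3% of rows called lower). The full order, with replicate 1 above 2, 2 above 3 and 3 above 4, was shared by 46 members. It was shared by 18.0% of all rows and by 30.1% of rows called lower. The 7 members outside it were Orc2, Orc3, Orc4, Orc5, Cdc7, Pole2 and Dut. The replicate numbers themselves give no order, and the labels name nothing that differs between these libraries. Rows with a count above 0 numbered 14345 in knockout replicate 1 and 17759, 17948 and 17775 in replicates 2 to 4. In WT libraries they numbered 14566 to 15430. The TMM factor was 0.966 in knockout replicate 1, 1.07, 1.14 and 1.08 in replicates 2 to 4, and 0.895 to 0.987 in WT. A link between these differences and the grading was not tested. The highest knockout library exceeded the lowest by a median of 3.04-fold over members, against 1.52-fold over all rows. Among WT libraries the median for members was 1.43-fold, against 1.61-fold over all rows. The range among knockout libraries was at least 2-fold for 45 members, against 25.8% of all rows. It was under 2-fold for 8 members, as for most rows: Orc2, Orc3, Orc4, Orc5, Rpa3, Rfc1, Pold3 and Dut.

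The spread among knockout libraries differed between roles, and these differences were not tested. The median over a role's genes of the highest over the lowest knockout library was 4.32-fold for Okazaki maturation (2 genes), 3.90-fold for nucleotide supply, 3.45-fold for licensing and 3.29-fold for the helicase core. Chromatin assembly (3.29-fold), fork protection (3.21-fold) and polymerase alpha-primase (3.15-fold) followed. It was 2.73-fold for the clamp and loader, 2.72-fold for helicase activation, 2.69-fold for Cdc7 and Dbf4, 2.48-fold for polymerases delta and epsilon, 2.19-fold for single-strand binding and 1.47-fold for origin recognition. Within origin recognition, Orc1 (3.84-fold) and Orc6 (2.79-fold) spread widely, and Orc2, Orc3, Orc4 and Orc5 by 1.13-fold to 1.55-fold.

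The median log2 level relative to the WT mean in knockout replicates 1 to 4 was -0.75, -1.68, -2.25 and -2.54 for licensing and -0.88, -1.55, -2.35 and -2.53 for the helicase core. It was -0.66, -1.28, -1.86 and -2.16 for polymerase alpha-primase and -0.52, -1.43, -1.67 and -1.62 for polymerases delta and epsilon. The 3 nucleotide supply genes had medians of -0.40, -1.60, -2.37 and -2.53, in which Dut did not share the order. For origin recognition the medians were -0.75, -1.16, -1.08 and -1.07, which do not show the steeper order of Orc1 and Orc6. Orc1 was at -1.19, -2.22, -3.09 and -3.10, and Orc6 at -0.65, -1.45, -2.04 and -2.13. For the clamp and loader they were -0.094, -0.81, -1.41 and -1.56, which puts replicate 1 near WT. Knockout replicate 1 lay below all WT libraries for 37 members (32.0% of all rows), replicate 2 for 49 (34.3%), and replicates 3 and 4 for 51 each (34.8% and 35.1%). Rpa1 was the one member for which a knockout library, replicate 1, exceeded all WT libraries.

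**Figure D4:**
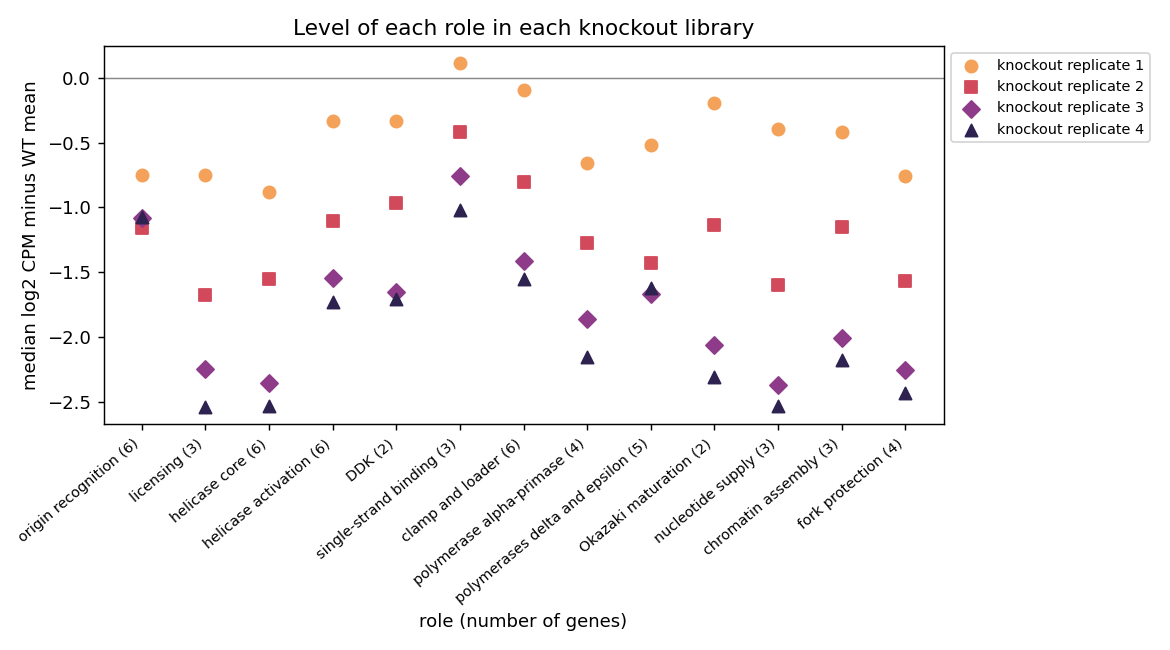
Median log2 CPM of the genes of each role, relative to the mean of the WT libraries, in each knockout library (number of genes in brackets). Knockout replicate 1 is the highest symbol in every role, and the 4 symbols are closest together for origin recognition, whose median hides the wider spread of Orc1 and Orc6.

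Leaving out knockout replicate 1 raised the number of members called lower from 43 to 49 (24.6% of all rows) and moved the median log2 fold change to -1.61. Without it, 9 members shifted by more than 1.5-fold: Orc1 (-2.79), Cdc6 (-2.53), Mcm5 (-2.77), Mcm10 (-2.44), Gins1 (-2.02), Rfc5 (-1.98), Lig1 (-2.01), Rrm2 (-2.12) and Chaf1b (-2.23). Besides the 4 clamp loader genes and Fen1, Rpa1 was then called lower (-0.73, adjusted p = 0.00592). Without knockout replicate 2, 30 members were called, the fewest with any 1 library left out (13.7% of all rows). The calls of 30 members were kept with each of the 8 libraries left out in turn. The share over all rows was not counted for these kept calls or for the 9 shifts.

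Markers of the later cell cycle moved in the same libraries. The mean log2 level of the 20 G2/M genes relative to WT was -0.47, -1.79, -2.57 and -2.91 in knockout replicates 1 to 4, and that of the 53 replication genes was -0.45, -1.19, -1.80 and -1.95. In WT replicates 1 to 4 the same means were 0.16, -0.041, -0.080 and -0.037 for G2/M and 0.007, -0.025, -0.020 and 0.038 for replication genes. Of the G2/M genes 15 were called lower and none higher (20.6% and 20.9% of all rows). Replicate 1 ranked first among knockout libraries for all 20 (40.9% of all rows). These levels share their libraries and scaling with those of the replication genes.

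Most genes on a list of accessory replication genes outside the 53 were lower too. The list was chosen with earlier results of these data known. Of 34 accessory genes, 23 were called lower and 1 higher (20.6% and 20.9% of all rows), with a median log2 fold change of -1.10. Replicate 1 ranked first among knockout libraries for 30 of the 34 (40.9% of all rows). The 3 with the smallest p were Mtbp, a partner of the firing factor Treslin (147 ± 14.3 to 51.9 ± 14.5 CPM; log2 fold change -1.50 with SE 0.20, adjusted p = 0.000868 by edgeR), Atad5, which unloads PCNA (49.7 ± 4.82 to 15.0 ± 5.66 CPM; log2 fold change -1.73 with SE 0.24, adjusted p = 0.00117 by edgeR), and Topbp1, which brings firing and checkpoint factors together (352 ± 32.3 to 117 ± 48.8 CPM; log2 fold change -1.59 with SE 0.27, adjusted p = 0.00226 by edgeR). The gene called higher was Pold4, the small subunit of polymerase delta (15.4 ± 5.48 to 39.4 ± 12.2 CPM; log2 fold change 1.35 with SE 0.29, adjusted p = 0.00579 by edgeR). Pold4 was at 11.7, 13.9, 12.6 and 23.5 CPM in WT replicates 1 to 4 and at 26.9, 31.2, 47.6 and 51.8 CPM in knockout replicates 1 to 4. All knockout libraries exceeded all WT libraries, while the other 3 polymerase delta genes fell. One accessory gene, Top2a, is also in the G2/M list.

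Of 14 other nucleotide supply genes, 6 were called lower and 1 higher (20.6% and 20.9% of all rows), with a median of -0.82. Dctd, the dCMP deaminase, fell from 64.7 ± 17.0 to 21.2 ± 5.31 CPM (log2 fold change -1.61 with SE 0.23, adjusted p = 0.00129 by edgeR), and Shmt1, a serine hydroxymethyltransferase of folate metabolism, from 72.4 ± 6.34 to 29.1 ± 10.4 CPM (log2 fold change -1.31 with SE 0.23, adjusted p = 0.00275 by edgeR). Tk2, the mitochondrial thymidine kinase, rose from 19.7 ± 3.19 to 32.9 ± 4.07 CPM (log2 fold change 0.74 with SE 0.17, adjusted p = 0.00735 by edgeR). The number called lower was 10 without knockout replicate 1 (24.6% of all rows) and 3 without knockout replicate 2, 3 or 4 (13.2% to 14.2%). The number called higher was 2 without WT replicate 3 (20.6%). Of 10 replication checkpoint genes, 8 were called lower and none higher (20.6% and 20.9% of all rows), with a median of -0.76. Etaa1, an activator of the checkpoint kinase ATR, fell from 27.3 ± 3.16 to 11.3 ± 3.89 CPM (log2 fold change -1.27 with SE 0.24, adjusted p = 0.00378 by edgeR). Cdc25a, the phosphatase that activates Cdk2, fell from 70.6 ± 4.49 to 28.7 ± 11.6 CPM (log2 fold change -1.30 with SE 0.25, adjusted p = 0.00387 by edgeR). Rad9a, a subunit of the checkpoint clamp, fell from 40.6 ± 4.24 to 21.6 ± 5.75 CPM (log2 fold change -0.91 with SE 0.19, adjusted p = 0.00579 by edgeR).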

How the data were processed

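The authors deposited 2 tables of raw counts, and the one that pairs identifiers with symbols was used. HISAT2, StringTie and GRCm38 are named in the submitters' processing notes. The counting program, its strand setting and its rule for multi-mapping reads were not given in the sources used here. Besides Orc2, Gins2 and Chaf1a, exons of Orc4, Orc6, Mcm7, Cdc45, Rfc2, Rfc4, Rfc5, Fen1 and Lig1 overlap protein-coding genes on the opposite strand. Those of Pole2 share 245 bases with Gm49384 on the same strand. Total counts were 29679405 to 32774905 per library, at which 3 counts equal 0.0873 to 0.110 CPM (counting error only).

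Rows that passed filterByExpr (at least 10 counts, 15 in total) were TMM-scaled and compared two-sided with edgeR 4.0.16 in R 4.3.3 (glmQLFit, glmQLFTest, no covariate), with Benjamini-Hochberg adjustment over all 13265 rows. SE is the log2 fold change divided by the square root of F. Partner ratios used log2 CPM (prior count 2) and an exact two-sided permutation test over 70 assignments. The fit was tested on simulated data. Coordinates and merged exon lengths come from GENCODE M21 (GRCm38), and promoters from RefSeq (GRCm38.p6).

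All members may be named. Values of each library are given for the member with the smallest and largest p of each role and for roles of 2 or 3 genes. Those of Orc1, Mcm5 and Pold4 were added after their values were seen. From other lists the 3 smallest p and each gene called higher are named, and Pole3 and Pole4 were added after their values were seen. The members and lists were chosen with earlier results of these data known. Alternatives were other scalings (DESeq2 1.42.0 size factors, upper quartile, library size), filters, DESeq2 and limma 3.58.1 (voom), a replicate block, a threshold of 0.01, a G2/M covariate and each library left out. Merging the close WT pairs was added after the data were seen.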

Additional observations from a re-analysis of the deposited data

Results flagged for a closer look

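In 106 groups of 4 values (53 genes in each genotype), 4 had 1 library far from the other 3, with a gap over the group's range above Dixon's 95% critical value. Chance alone flags about 1 group in 20. Knockout replicate 1 stood above the other knockout libraries for Orc2 (98.5 CPM, the nearest other at 73.3), Pold2 (63.6 CPM, the nearest at 32.2) and Pole2 (39.9 CPM, the nearest at 19.8). WT replicate 3 stood below the other WT libraries for Pole (128 CPM, the nearest at 159).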

How the results depend on the processing

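The number of members called lower stayed between 38 and 47 under the other scalings, filters and tests (11.9% to 23.7% of all rows). It was 22 at an adjusted p under 0.01 (9.41% of all rows) and 0 with the G2/M covariate (0.792%). It was 21 with the close WT pairs merged (10.3%) and 30 to 49 with 1 library left out (13.2% to 24.6%). No member was called higher under any setting. In the same order, and beside the same shares of all rows, accessory genes called lower numbered 11, 1, 10 and 21 to 24. Other nucleotide supply genes numbered 3, 0, 3 and 3 to 10. In the main fit they numbered 23 and 6 (20.6% of all rows). Checkpoint genes called lower numbered 0 with the covariate, against 8. With the covariate no accessory or nucleotide gene was called higher (3.5% of all rows), against 1 each, and the nucleotide count was 1 to 2 with 1 library left out. Over all rows the median log2 fold change was 0.022, 0.20 with either upper-quartile factors or plain library size, and 0.0039 with the G2/M covariate.

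With the replicate number as a replicate block 44 members were called lower (17.3% of all rows), and the call for Orc4 was lost (adjusted p = 0.0620). The numbers do not pair the libraries: the deviations of same-numbered libraries correlated at -0.019, -0.017, -0.0028 and -0.032.

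With the G2/M covariate 20 members turned positive: Orc5 (0.086), Gmnn (0.21), Gins1 (0.16), Gins2 (0.051), Gins3 (0.47), Dbf4 (0.21), Rpa1 (0.33), Rpa3 (0.22), Pcna (0.060), Rfc2 (0.29), Rfc3 (0.31), Rfc4 (0.30), Rfc5 (0.26), Prim1 (0.034), Pold1 (0.0075), Fen1 (0.42), Lig1 (0.000102), Chaf1b (0.18), Slbp (0.046) and Dut (0.34). Dut was also positive with upper-quartile factors (0.12), plain library size (0.12), the filter of 5 CPM in 4 libraries (0.044), limma-voom (0.024) and the replicate block (0.015), and ranged from -0.26 to 0.21 with 1 library left out. The ratios of Dbf4 to Cdc7 (-0.29 to 0.20) and Rfc4 to Rfc1 (-0.18 to 0.21) changed sign with 1 library left out. The cause was not tested.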
